A study of Mus musculus with 5 samples.

Results

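These regions are 1 kb stretches of the mouse autosomes that carried little DNA methylation in muscle and a high level in each of 4 teratomas. A fixed 1 kb tile of build mm10 was tested where 5 or more CpG cytosines were listed in all 5 libraries, and its level was the mean percent methylated over those shared cytosines. Members lay under 20% in muscle and at 60% or more in each teratoma. There were 808 members among 158035 tested tiles, or 0.511%, and they made up 2.41% of the 33462 tested tiles under 20% in muscle. The members were thus chosen by the levels of all 5 libraries, and those levels are described here without a test.

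Methylation was read by reduced representation bisulfite sequencing, a method that samples the CpG-richer part of the genome. The control library was muscle tissue of C57BL/6x129S6 mice, with its culture condition given as control. The teratomas, tumours of mixed differentiated tissue from pluripotent cells, were of the same strain and formed after embryonic stem cells were injected into tetraploid embryos. Their culture conditions are labelled P5_2iL, P5_2iL_F, P5_a2iL_1 and P5_LCDM_1, names that the labels do not spell out. There was 1 library per group, and a difference is one between libraries, with no replicate check. The age and number of animals, the muscle sampled and the host of each teratoma are not stated in the labels.

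The deposited values are percents alone, without the number of reads, and the depth behind them is unknown. The files list from 4017125 cytosines in muscle to 5323090 in P5_2iL_F, and the members rest on 8307 of the 3079380 autosomal cytosines that all libraries share. A percent is an average over all cells of a tissue. A change in the cell types present and a change within 1 cell type cannot be told apart in it. No expression was measured, so the tissue labels were not checked against marker genes.

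In mammalian DNA most CpG cytosines are methylated, while CpG-dense gene starts usually are not. Away from gene starts, regulatory elements such as enhancers often lose methylation in the tissue where they are used, over a short stretch of otherwise methylated DNA. Methylation is therefore read as one mark of cell identity, although a low level alone does not show that an element is active.

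Few members held the start of a protein coding gene, 9 in all where starts were known. At 5 of these genes 4 or more shared cytosines lay in the 250 bases before the start. Those 5 windows are shown (RefSeq, GRCm38.p6, the assembly that mm10 is built on), since the levels below can be placed on them. Sequences run 5′ to 3′ on the strand of the gene and end next to the gene start. A gene can have several known starts, and a start can lie inside the gene. The Pla2g5 tile lay at 0.685 of the 64316 bp length of the gene, and the Cmbl tile at 0.127 of 24778 bp. Capitals mark the CpGs at which a cytosine was measured in all 5 libraries. The windows are chr4:58285712-58285961 on the plus strand for Musk, chr4:138819258-138819507 on the minus strand for Pla2g5, chr15:31568583-31568832 on the plus strand for Cmbl. The other two are chr1:89931825-89932074 on the plus strand for LOC102637806 and chr16:91069153-91069402 on the minus strand for 4932438H23Rik.
Musk: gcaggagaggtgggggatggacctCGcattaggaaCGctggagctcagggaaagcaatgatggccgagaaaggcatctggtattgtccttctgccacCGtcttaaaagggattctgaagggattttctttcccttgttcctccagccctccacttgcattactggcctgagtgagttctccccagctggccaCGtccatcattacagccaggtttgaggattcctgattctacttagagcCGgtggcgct
Pla2g5: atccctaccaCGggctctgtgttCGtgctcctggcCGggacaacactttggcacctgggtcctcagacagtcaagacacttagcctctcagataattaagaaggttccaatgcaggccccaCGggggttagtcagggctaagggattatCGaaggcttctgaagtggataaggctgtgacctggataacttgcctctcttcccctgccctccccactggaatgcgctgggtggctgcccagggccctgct
Cmbl: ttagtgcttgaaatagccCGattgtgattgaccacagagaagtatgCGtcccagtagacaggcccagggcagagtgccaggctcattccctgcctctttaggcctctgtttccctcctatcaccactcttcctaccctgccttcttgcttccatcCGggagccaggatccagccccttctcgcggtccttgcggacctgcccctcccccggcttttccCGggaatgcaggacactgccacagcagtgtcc
LOC102637806: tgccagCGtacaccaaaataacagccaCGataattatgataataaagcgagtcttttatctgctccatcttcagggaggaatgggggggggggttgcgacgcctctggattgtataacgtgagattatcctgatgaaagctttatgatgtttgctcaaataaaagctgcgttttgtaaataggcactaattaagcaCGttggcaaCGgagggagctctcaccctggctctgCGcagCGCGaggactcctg
4932438H23Rik: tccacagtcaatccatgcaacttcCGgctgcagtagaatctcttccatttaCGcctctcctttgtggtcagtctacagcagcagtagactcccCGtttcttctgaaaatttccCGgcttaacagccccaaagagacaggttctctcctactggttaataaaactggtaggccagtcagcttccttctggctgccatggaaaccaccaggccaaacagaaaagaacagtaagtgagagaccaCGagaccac

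Musk encodes the receptor kinase that organises the neuromuscular junction. Over 9 shared cytosines at 5 of the 7 CpGs in its window, muscle had a mean of 15.9%, P5_2iL 92.9%, P5_2iL_F 93.7%, P5_a2iL_1 83.1% and P5_LCDM_1 73.3%. Single cytosines ranged from 0 to 33.3% in muscle and from 80 to 100% in P5_2iL, so those ranges did not overlap. In P5_LCDM_1 the 2 cytosines of the CpG that begins 58 bases before the start were both at 40%, and another cytosine, 225 bases before the start, was at 40% as well.

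Pla2g5 encodes a secreted phospholipase. In its window all 8 shared cytosines were at 0% in muscle. The means were 60.9% in P5_2iL, 71.7% in P5_2iL_F, 58.9% in P5_a2iL_1 and 53.4% in P5_LCDM_1. Single teratoma values were scattered, from 0 to 100% in P5_a2iL_1, and the cytosine at 0% there was level with muscle. Cmbl, which encodes a hydrolase, had 4 shared cytosines in its window, at 9.34% in muscle and at 85.5%, 82.7%, 86.1% and 70.7% in P5_2iL, P5_2iL_F, P5_a2iL_1 and P5_LCDM_1. Over the whole Cmbl tile the distance from muscle to the lowest teratoma was 55.2 points over shared cytosines and 34.2 over every cytosine listed in each library.

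The remaining windows were less uniform. LOC102637806 had 7 shared cytosines before its start, and part of that window lies outside the member tile. Muscle had a mean of 3.57% there, P5_2iL 71.4%, P5_2iL_F 85.7%, P5_a2iL_1 41.4% and P5_LCDM_1 100%, so P5_a2iL_1 was below 60% in the window. At 4932438H23Rik the means over 11 cytosines were 12.1% for muscle, 68.7% for P5_2iL, 56.7% for P5_2iL_F, 67.9% for P5_a2iL_1 and 66.1% for P5_LCDM_1. Muscle and teratomas overlapped there at single cytosines. At 136 bases before the start, muscle was at 66.7%, above P5_2iL at 35.3%, P5_2iL_F at 27.3% and P5_LCDM_1 at 55.6%, and the 3 cytosines nearest the start did not exceed 50% in any library.

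The hexamer CAGCTG, one form of the E-box that myogenic factors bind, occurs once in the Musk window and in none of the other windows shown. It reads the same on both strands. Of the windows of the 9 protein coding genes whose start lay in a member, 4 held it. The share was 12.2% of 20085 windows of the same length at protein coding genes. Beside Musk these were the windows of Dusp27, Rnase13 and Aqp2. No cytosine in those was shared by all 5 libraries, so no methylation level goes with the hexamer there. The wider E-box CANNTG, which includes it, was found in 6 of the 9 windows and in 62.6% of all. These are matches of letters and do not show binding.

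The levels of members within each library were bounded by the rule, under 20% for muscle and from 60% up for the teratomas. Muscle had a median of 12.5%, with quartiles of 5.56 and 16.7%, and 129 members were at exactly 0%. In the teratomas the medians were 92.1% in P5_2iL, 88.7% in P5_2iL_F, 77.5% in P5_a2iL_1 and 78.6% in P5_LCDM_1. P5_2iL alone was the highest teratoma at 435 members, and P5_a2iL_1 or P5_LCDM_1 alone was the lowest at 379 and 334. In all, 700 members reached 80% in P5_2iL and 374 did so in P5_LCDM_1. The same order of the first 2 libraries over the others was present across all tested tiles, where the medians were 72.9% in muscle and 87.6%, 85.8%, 78.5% and 71.9% in P5_2iL, P5_2iL_F, P5_a2iL_1 and P5_LCDM_1.

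**Figure D1:**
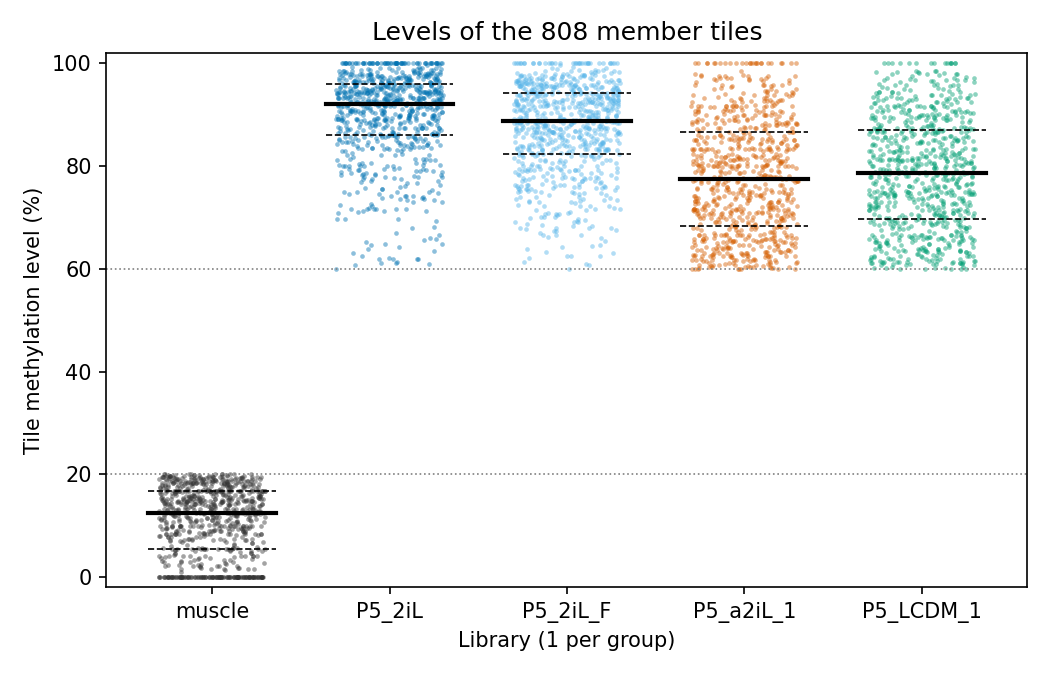
Methylation level (%) of each of the 808 member tiles in the 5 libraries, 1 point per tile. Solid lines are medians, dashed lines quartiles, and dotted lines the limits of 20% and 60% that chose the tiles; the P5_a2iL_1 and P5_LCDM_1 points lie lower than those of P5_2iL, with medians of 77.5% and 78.6% against 92.1%.

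The distance from muscle to the lowest teratoma had a median of 59.8 percentage points and ran from 40.4 to 95. The 4 teratomas of a member lay within a median of 20.2 points of each other, and at 245 members within 15 points. A group of 188 members was at 80% or more in every teratoma, and 54 of these were also at 0% in muscle. P5_LCDM_1 was the narrowest gate of the rule. Muscle under 20% with 60% or more in a single teratoma held for 1.85% of tested tiles in P5_2iL, 1.76% in P5_2iL_F, 1.07% in P5_a2iL_1 and 0.901% in P5_LCDM_1. The members were 27.6% of the first of these sets and 56.7% of the last, and all 4 sets share the muscle library. Without P5_LCDM_1 the rule would have kept 1454 tiles.

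The cytosines of a CpG on opposite strands are listed separately, and both were among the shared cytosines that chose the members. At 587 members with 2 or more CpGs read on both strands, muscle lay below every teratoma on each strand alone in 584, a direction that the choice of members nearly fixes. Between the strands, levels differed by a median of 10.2 points for muscle, 4.97 for P5_2iL, 6.76 for P5_2iL_F, 11.4 for P5_a2iL_1 and 9.41 for P5_LCDM_1. Only 154 of the 587, or 26.2%, met both limits on each strand alone. At the others the level of at least 1 strand was past a limit in 1 or more libraries.

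Cytosines of the member tiles that were not listed in all 5 libraries took no part in the choice. In muscle 266 members had such cytosines, and their median was 33.3%, against 12.1% over the shared cytosines of the same members. In the teratomas the unused cytosines lay near the used ones, with medians of 96.3% in P5_2iL, 93.3% in P5_2iL_F, 83.3% in P5_a2iL_1 and 80% in P5_LCDM_1. Among 64 members with 2 or more unused cytosines in each library, muscle was the lowest of the 5 at 41. The muscle level over them was under 20% at 20 members, and 9 met the whole rule. Between the first and last shared cytosine, 218 members had unused ones in muscle. Their median was 25%, against 11.7% over the shared cytosines of the same members. The name unmethylated in muscle therefore holds for the shared cytosines that chose the members, which spanned a median of 223 bp per tile. It holds less often for the other cytosines of the tile, also for those within that span.

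Methylation in muscle was higher outside the tiles, while the teratoma medians moved less and their means were lower farther out. The tiles were chosen for low muscle and high teratoma levels. A move away from those levels at cytosines outside the choice is thus nearly fixed in advance. Inside the tiles, the unused cytosines had a muscle median of 33.3%, above that found next to the tile edge. Each distance rests on those members that had shared cytosines there, so the set of members changes from one distance to the next. There were 247 members within 100 bp, 175 from 250 to 500 bp and 650 from 5 to 10 kb. Within 100 bp of the tile edge the median in muscle was 18.2%. It was 30.9% from 100 to 250 bp, 43.9% from 250 to 500 bp and 66.7% from 500 to 1000 bp, and stayed between 63.4 and 66.7% out to 10 kb. Over the same distances P5_2iL stayed between 85.2 and 93.3%, P5_2iL_F between 83.7 and 90.4%, P5_a2iL_1 between 75.7 and 78.9% and P5_LCDM_1 between 74.5 and 80.6%. Means, which weigh the tail of low values more, went from 84.9% within 100 bp to 71.2% from 5 to 10 kb in P5_2iL, from 81.7 to 70.5% in P5_2iL_F, from 73.4 to 66.3% in P5_a2iL_1 and from 70.7 to 64.99% in P5_LCDM_1. The muscle mean went from 26.98 to 59.2%.

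**Figure D2:**
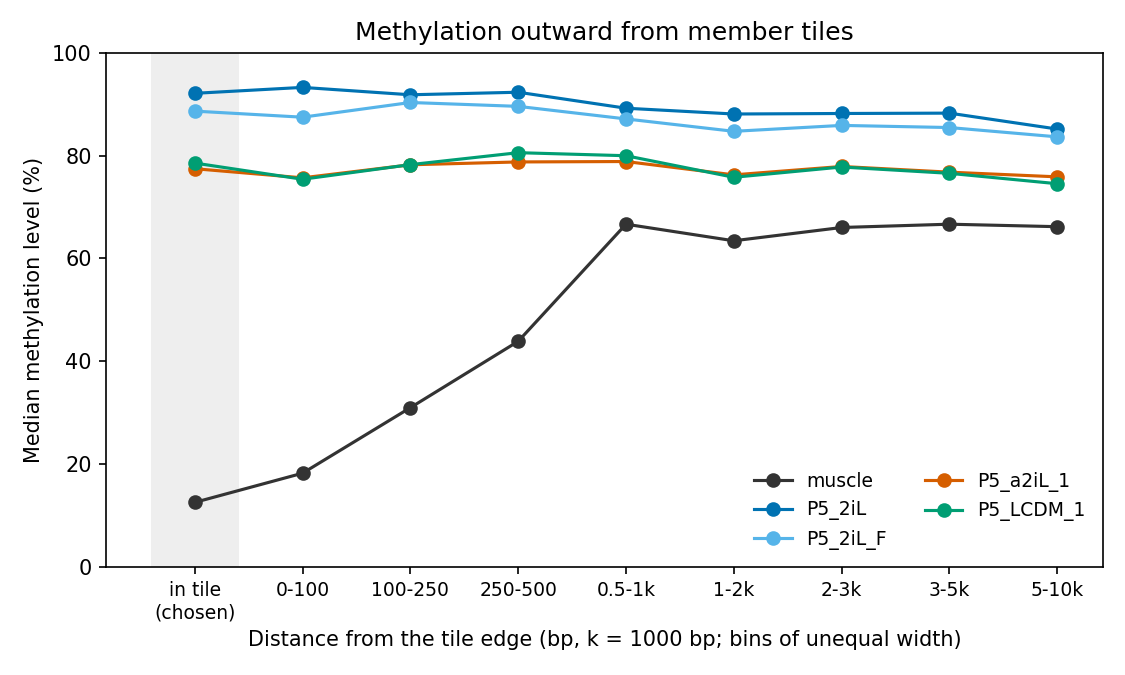
Median methylation level (%) against distance from the edge of the member tiles (bp, bins of unequal width), over cytosines shared by all 5 libraries and outside every member. Each bin rests on the members with such cytosines in it, from 175 to 650. The choice of tiles low in muscle nearly fixes that muscle is higher outside them. The shaded point shows the chosen tiles themselves; the muscle line goes from 18.2% within 100 bp to 66.7% at 500 to 1000 bp, while the teratoma lines stay above 74%.

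The flanks were also taken as tiles that were no members, with the same limit from the choice. At 390 tiles next to a member with 3 or more shared cytosines, muscle had a median of 44.6%, P5_2iL 90.8%, P5_2iL_F 88.7%, P5_a2iL_1 78.7% and P5_LCDM_1 77.7%. Muscle lay below all 4 teratomas in 69.2% of them, in 46.8% of tiles 5 kb away and in 34.3% of all 208207 tiles of that coverage. Tiles next to the other tiles under 20% in muscle had a median of 1.92% in muscle and from 2.62 to 4.40% in the teratomas, so those stood in wider unmethylated stretches. Beside the 60 members with 20 or more shared cytosines the muscle median was lower, at 27.5%. Of the members, 780 stood alone and 28 formed 14 adjacent pairs.

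Members held few listed CpG cytosines for regions that are unmethylated in muscle. Listed cytosines depend on what the method covered, and both strands of a CpG count separately. The CpG density of the sequence itself was not computed. They held a median of 8 shared cytosines, against 10 over all tested tiles and 30 over the other tiles under 20% in muscle. Counting each cytosine listed in any library, the medians were 14, 17 and 48. The minimum of 5 is part of the rule and applied to all 3 sets. Among tiles under 20% in muscle, members were 8.72% of those with 5 to 7 shared cytosines, 6.22% with 8 to 11, 3.46% with 12 to 19 and 0.289% with 20 or more. Levels over fewer cytosines are less precise, which bears most on the 341 members with 5 to 7.

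**Figure D3:**
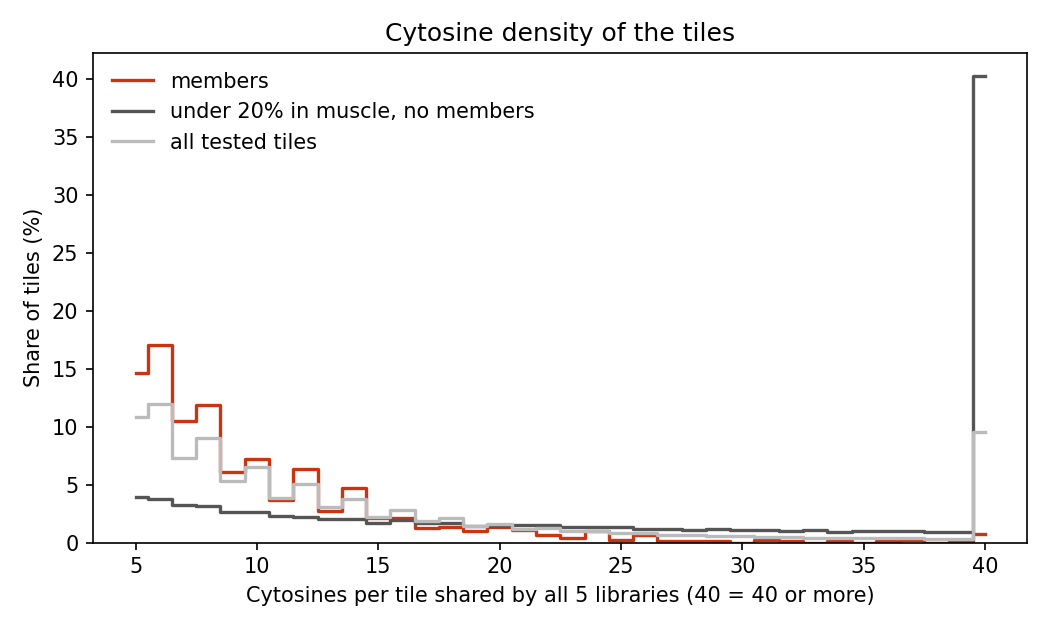
Share of tiles (%) against the number of cytosines per tile shared by all 5 libraries, with 40 standing for 40 or more. Members (red) and all tested tiles (light grey) peak at few cytosines, with medians of 8 and 10, while the other tiles under 20% in muscle (dark grey) have a median of 30.

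Most members lay inside genes, at a share near that of all tested tiles, and few held a known gene start. Of 808 members 500 overlapped a protein coding gene, which is 61.9% (exact binomial 95% interval 58.4 to 65.2%, which covers counting only), against 58.5% of all tested tiles and 77.3% of the other tiles under 20% in muscle. Gene starts were known on 18 of the 19 autosomes, and for 16457 of the 20665 autosomal protein coding genes. Starts were thus also missing on those 18 autosomes. For the member in Chd7 the nearest known start was that of Gm11780, 4335543 bp away. On the 18 autosomes, 9 of 781 members held a known start of a protein coding gene, or 1.15%. The share was 30.7% of the other tiles low in muscle and 7.10% of all tested tiles. The median distance to the nearest known start was 42.7 kb for members, 0.68 kb for the other tiles low in muscle and 30.6 kb for all. Missing starts can lower these shares and lengthen these distances, and the size of that effect was not tested. A further 225 members, or 28.8%, lay more than 10 kb from any protein coding gene, where the other tiles low in muscle had 10.5%.

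Along a gene the members were spread almost evenly. Of 389 members in a gene of known strand, 80 lay in the first of 5 equal stretches of the gene, 63, 89 and 79 in those that follow and 78 in the last. Of the other tiles low in muscle 73.8% lay in the first stretch, and of all tested tiles 32.5%. The genes were long, with a median of 103 kb for members against 33.6 kb and 61.9 kb in the other 2 sets, and 253 members were in genes over 100 kb. Longer genes hold more tiles, and no comparison at equal length was made. Exons and introns were not analysed here.

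**Figure D4:**
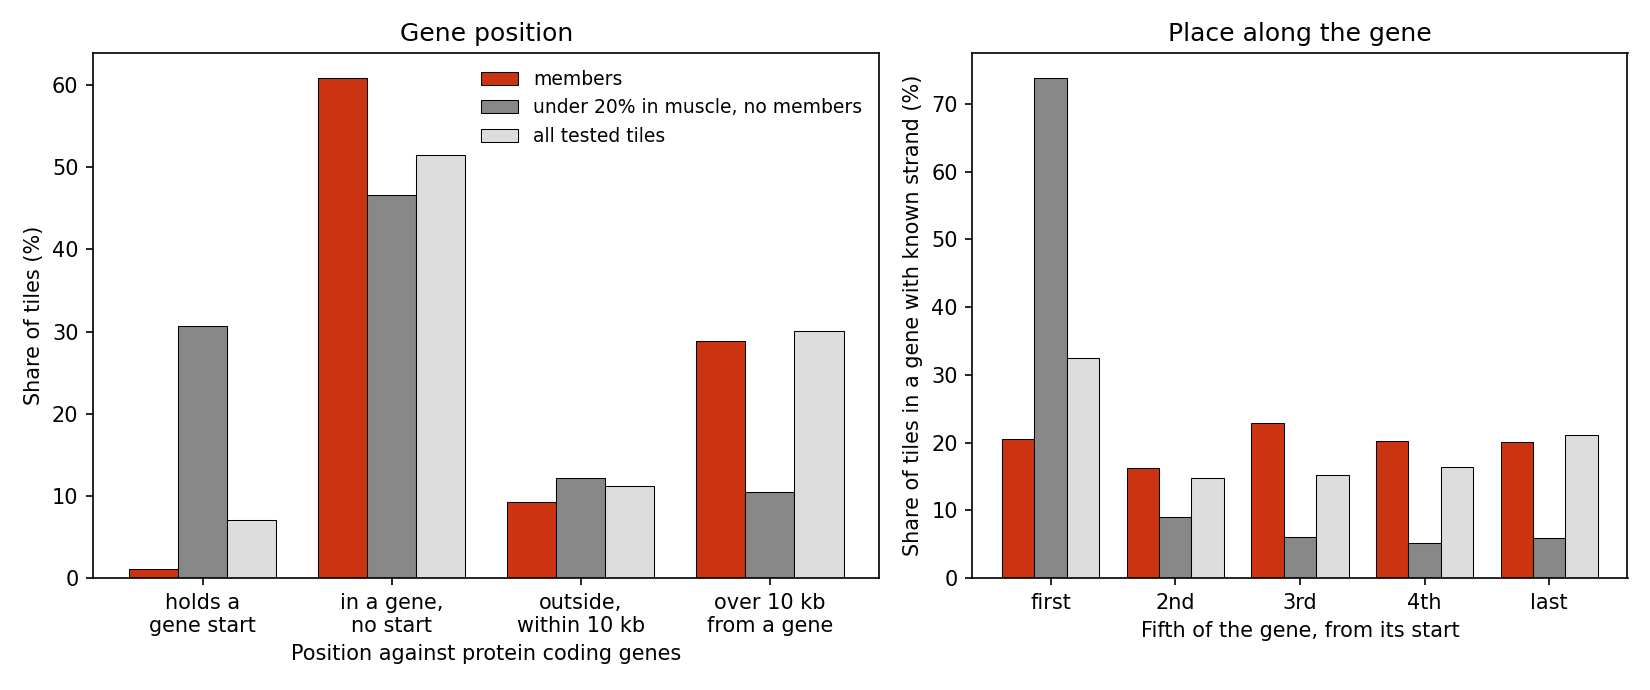
Left, share of tiles (%) by position against protein coding genes; right, share (%) of tiles in a gene of known strand by place in the gene, cut into 5 equal stretches from its start, for members (red), the other tiles under 20% in muscle (dark grey) and all tested tiles (light grey). Members hold a known gene start in 1.15% of cases against 30.7% of the other tiles low in muscle, and 20.6% of them fall in the first stretch against 73.8%.

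Genes of skeletal muscle were read from 5 lists: the sarcomere, excitation and membrane, metabolism and stress, myogenic regulators and the neuromuscular junction. A gene counted where a member lay in it or within 1 kb. Over all protein coding genes with a tested tile, 466 of 16933, or 2.75%, had a member. In the muscle lists 10 of 167 genes did, or 5.99%, and in the 11 other lists 5 of 201, or 2.49%. By tiles, members were 0.869% of the 1151 tested tiles at muscle genes, 0.266% of 1505 at the genes of other lists and 0.53% of the 96295 at all genes. Over all tested tiles of the muscle lists the lowest teratoma minus muscle had a median of -0.62 points, against -0.73 over all genes. Most tiles of muscle genes thus did not have muscle below every teratoma. By library their medians were 59.6% in muscle, 86.5% in P5_2iL, 83.7% in P5_2iL_F, 75% in P5_a2iL_1 and 69.6% in P5_LCDM_1. Over all genes these were 66.7, 85.7, 83.7, 75.2 and 70.4%, in the same order.

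Among 31 genes of excitation and the muscle membrane 4 had a member, or 12.9%, against 2.75% of all genes. Jph2 encodes junctophilin, which holds the cell membrane to the calcium store. Its member on chromosome 2 (163385001 to 163386000) lay 11973 bp from the gene start, at 1.79% in muscle, 91.2% in P5_2iL, 88.6% in P5_2iL_F, 85.2% in P5_a2iL_1 and 82.3% in P5_LCDM_1 over 8 cytosines. All teratomas were far above muscle. Over every cytosine listed in each library, the distance from muscle to the lowest teratoma was 42.8 points in place of 80.5. Bin1, which shapes the transverse tubules, was at 0% in muscle and from 80.4% (P5_LCDM_1) to 89.4% (P5_2iL) in the teratomas, also over 8 cytosines.

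The other members of that list were less far apart. Dysf encodes dysferlin, a membrane repair protein, and its member at the far end of the gene was at 7.95% in muscle and from 60.3% (P5_a2iL_1) to 85.7% (P5_2iL) in the teratomas. Its distance from muscle to the lowest teratoma was 52.4 points, and 27.6 over every listed cytosine. Trim72, another gene of membrane repair, had its member 623 bp from the gene start, at 18.1% in muscle and from 63.5% (P5_LCDM_1) to 92.9% (P5_2iL_F). Both had a library near a limit of the rule.

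Of 32 genes of metabolism and stress, Hspb6 and Ucp3 had a member, or 6.25%, against 2.75% of all genes. Hspb6 encodes a small heat shock protein of muscle. Its member, 700 bp downstream of the gene start on chromosome 7 (30554001 to 30555000), was at 0% in muscle, 100% in P5_2iL, 85% in P5_2iL_F, 86.7% in P5_a2iL_1 and 92.5% in P5_LCDM_1 over 10 cytosines. The tile before it was low in all libraries, from 0.391% in P5_LCDM_1 to 1.37% in muscle over 49 cytosines, and the tile 2 kb after it was high in all, from 96.1 to 98.5%. Muscle thus differed from the teratomas only in the tile between, among these 3. Ucp3, a mitochondrial carrier gene of muscle, had a member beginning 10 bp from the gene start, at 14.5% in muscle and from 89.2 to 98.3% in the teratomas over 5 cytosines.

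Of 31 myogenic regulators 2 had a member, or 6.45%, against 2.75% of all genes. Nfatc1, a calcium-responsive transcription factor gene, was at 15.0% in muscle and from 77.0% (P5_a2iL_1) to 93.0% (P5_2iL) in the teratomas over 14 cytosines. Tbx15, a T-box gene of muscle and skeleton, was at 9.26% in muscle and from 64.6% (P5_a2iL_1) to 92.0% (P5_2iL) over 9 cytosines. The genes Myod1, Myog, Myf5 and Myf6, which set muscle fate, were in the list and had no member. With 2.75% of all genes holding a member, so few genes would mostly hold none. Musk was the one gene with a member among 15 of the neuromuscular junction, or 6.67%. Its tile was at 16.4% in muscle and from 75 to 94.8% in the teratomas.

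Of 58 sarcomere genes 1 had a member, or 1.72%, against 2.75% of all genes. It was Ttn, which encodes titin. Over 21 cytosines it was at 19.05% in muscle, 87.3% in P5_2iL, 80.5% in P5_2iL_F, 62.6% in P5_a2iL_1 and 61.9% in P5_LCDM_1, near both limits. The tile 1 kb above it was at 51.2% in muscle and from 89.3 to 94.3% in the teratomas.

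**Figure D5:**
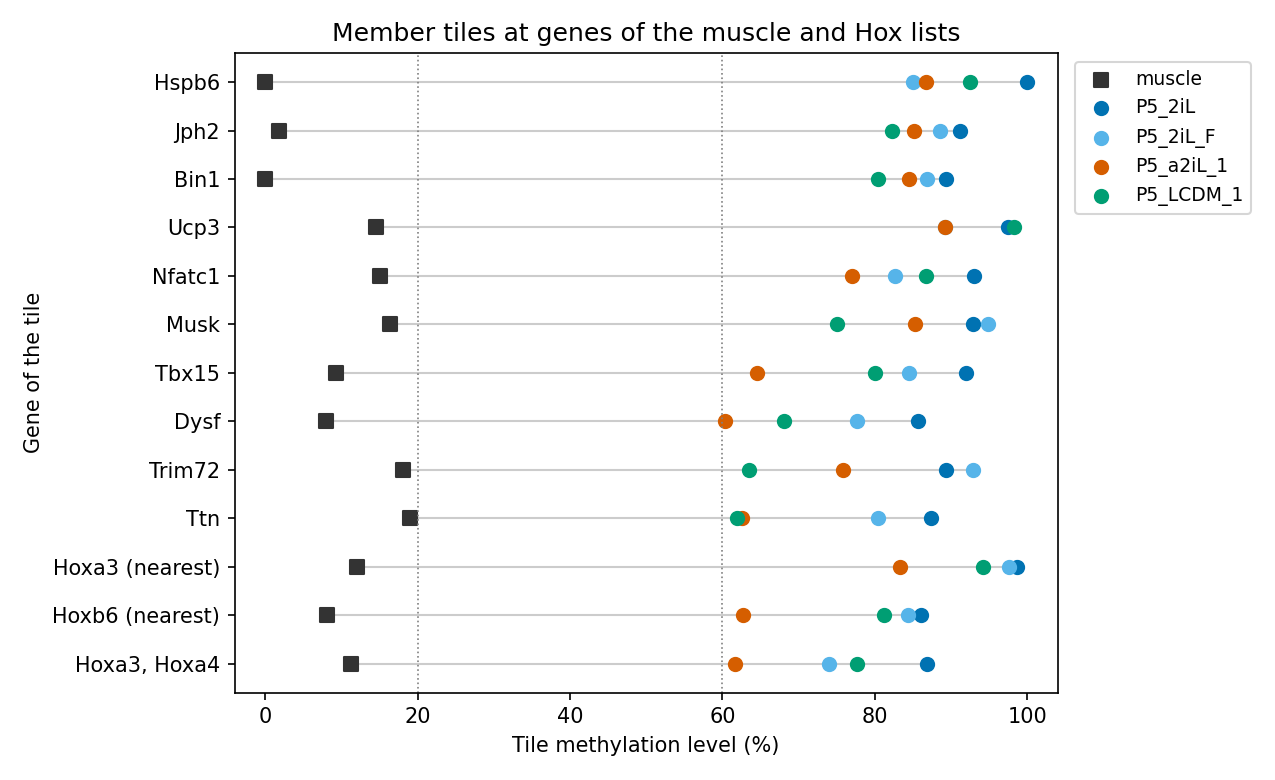
Methylation level (%) of member tiles at genes of the muscle lists and of the Hox and limb list, with muscle as a square and each teratoma as a circle; dotted lines mark 20% and 60%. Hspb6, Jph2 and Bin1 have all teratomas above 80% and muscle under 2%, while Ttn and Trim72 lie near the limits, and the Ucp3 point of P5_2iL_F is hidden behind that of P5_a2iL_1 (both 89.2%).

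Lists for other cells that muscle or a teratoma can hold had no member: 0 of 20 endothelial genes, 0 of 19 blood and immune genes, 0 of 18 genes of fibroblasts and connective tissue, 0 of 14 of smooth muscle and pericytes, 0 of 14 of nerve and Schwann cells and 0 of 10 adipocyte genes. The same was true of 15 cardiac, 20 epithelial and endodermal, 18 pluripotency and 10 methylation machinery genes. With 2.75% of all genes holding a member, lists of this size would hold few in any case, and the part of cell composition in the members was not tested.

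The Hox and limb list was the exception among the other lists, with 5 of 45 genes at 4 members. That is 11.1% of its genes, against 2.75% of all genes, where a member near several genes counted for each. By tiles, members were 1.36% of 294 tested tiles, against 0.53% at all genes. Of those 294 tiles 182 were under 20% in muscle, against 27612 of 96295 at all genes. The list as a whole was low in every library, with medians of 12.5% in muscle and from 11.9% (P5_2iL) to 18.3% (P5_LCDM_1) in the teratomas. Hox genes encode the transcription factors that set position along the body axis and the limbs. A member 59 bp from Hoxa3 on chromosome 6 (52168001 to 52169000) was at 12.1% in muscle, 98.7% in P5_2iL, 97.6% in P5_2iL_F, 83.3% in P5_a2iL_1 and 94.2% in P5_LCDM_1 over 26 cytosines. The tile 4 kb below it lay the other way, at 22.6% in muscle and from 6.10 to 11.98% in the teratomas. The tile 2 kb above it followed the member, at 42.6% in muscle and from 72.97 to 96.03% in the teratomas. A second, at Hoxa3 and Hoxa4, was at 11.2% in muscle and from 61.6% (P5_a2iL_1) to 86.9% (P5_2iL) over 37 cytosines. The next tile up from it was low in every library, from 3.71% in muscle to 23.7% in P5_2iL_F, and the tile 5 kb below it was at 22.3% in muscle and from 40.04% (P5_LCDM_1) to 95.2% (P5_2iL_F) in the teratomas.

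A member 432 bp from Hoxb6, and also within 1 kb of Hoxb5, was at 8.16% in muscle and from 62.7% (P5_a2iL_1) to 86.1% (P5_2iL) in the teratomas. The tile 1 kb above it did not differ in this way, with 0.327 to 3.50% in the 5 libraries, while the tile 2 kb below it was at 3.03% in muscle and from 16.4% (P5_a2iL_1) to 86.4% (P5_LCDM_1) in the teratomas. Meis1, a partner of Hox proteins, held the last member of the list over 5 cytosines, with 14.4% in muscle and from 60.9 to 75.3% in the teratomas.

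Among members with 10 or more shared cytosines, the largest distances between muscle and the lowest teratoma were at genes of many functions, from Hspb6 at 2909 bp to Gse1 at 352883 bp in length, and at 1 tile outside genes. Gse1, a gene for a coiled-coil protein, had a member on chromosome 8 (120477001 to 120478000) at 0% in muscle, 92.0% in P5_2iL, 93.3% in P5_2iL_F, 92.5% in P5_a2iL_1 and 94.4% in P5_LCDM_1. Peli2, a ubiquitin ligase gene of innate signalling, had one on chromosome 14 (48250001 to 48251000) at 0% in muscle and from 90.9 to 95.2% in the teratomas. The nearest measured tiles of the Peli2 member, 2 kb below and 4 kb above, were at 99.0 and 94.1% in muscle, with teratomas from 69.3 to 95.3%.

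Erc1, a scaffold gene of vesicle release, was at 0% in muscle and from 90.9 to 97.2% in the teratomas. Tcf7l1, a transcription factor gene of the Wnt pathway, was at 0% over 20 cytosines and from 88.3 to 96.5%. Trio, which encodes a guanine nucleotide exchange factor, was at 0% and from 87.5 to 97.9%. Over every cytosine listed in each library, its distance from muscle to the lowest teratoma was 59.8 points in place of 87.5. Slc36a1, which encodes an amino acid transporter, was at 7.5% in muscle over 20 cytosines and from 94.4 to 96.9%, with both measured neighbours above 93% in muscle. Hspb6, Bsg (a cell surface glycoprotein), Kif5c (a kinesin motor) and a tile 9665 bp from Vapb completed this group of 10. At these 10 members muscle did not exceed 7.5% and no teratoma fell below 82.5%.

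Genes rarely held several members. A single member was present in or within 1 kb of 414 genes, 2 in 47 and 3 in 5, and none had more. Those with 3 were Trio, Peli2, Gse1, Ppm1h and Asap1, which are from 161 to 353 kb long and held from 18 tested tiles (Peli2) to 138 (Gse1). All 3 Peli2 members were at 80% or more in every teratoma, with 0%, 10% and 18.8% in muscle. In Gse1 the other members were closer to the limits, at 18.3 and 16.8% in muscle. In Trio the member on chromosome 15 (27998001 to 27999000), with 5 shared cytosines, had a distance of 56.9 points from muscle to the lowest teratoma, and 20.5 over every listed cytosine.

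Adjacent pairs gave the longest stretches. In Rgs14, a regulator gene of G protein signalling, neighbouring tiles on chromosome 13 (55378001 to 55380000) were at 5.56 and 4.17% in muscle and from 83.3 to 100% in the teratomas. Bcl2l11, which encodes the cell death protein Bim, held a pair on chromosome 2 (128139001 to 128141000) with 30 cytosines, at 6.21 and 0% in muscle and from 81.0 to 100%. Gpsm2, a gene of spindle orientation, held a pair at 10.7 and 14.3% in muscle, and the tile just below the pair was at 99.1% there. Syne2, which encodes a nesprin of the nuclear envelope, held a pair at 0% in muscle with 100% in P5_2iL and down to 68.8% in P5_a2iL_1. The last of these 5 pairs was in Tecr.

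Beside Musk, Pla2g5 and Cmbl, members that held a gene start were at Dusp27, Rnase13, Medag, LOC102637806, Aqp2 and 4932438H23Rik. The Medag tile, like that of Pla2g5, lay inside the gene, at 0.716 of its 64083 bp length. Dusp27, a phosphatase-like gene of striated muscle, was at 3.12% in muscle, 96.8% in P5_2iL, 88.4% in P5_2iL_F, 90.6% in P5_a2iL_1 and 98.4% in P5_LCDM_1 over 8 cytosines. No cytosine was shared in the 250 bases before its start, so this level belongs to the part of the tile outside that window. Aqp2, the water channel gene of the kidney, was at 18.6% in muscle and from 64.1% (P5_LCDM_1) to 91.8% (P5_2iL) over 32 cytosines. LOC102637806 was at 10.01% in muscle and from 60.1 to 86.7% over 54 cytosines. 4932438H23Rik was at 18.6% in muscle and from 63.5 to 71.6% over 27 cytosines.

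The members with most shared cytosines stood closer to the limits. A tile on chromosome 12 (18136001 to 18137000), 196346 bp from the nearest protein coding gene, had 94 of them and was at 9.02% in muscle and from 61.0 to 69.4% in the teratomas. Arhgap27, which encodes a GTPase activator, had 65 and a wider gap, with 14.5% in muscle and from 81.9 to 95.6%. Ccm2l, a gene of the endothelial cerebral cavernous malformation pathway, had 62, with 16.8% in muscle, 60.7% in P5_a2iL_1 and from 87.9 to 90.4% in the other teratomas. A tile near Prickle1 had 55. The members farthest from a protein coding gene were 580946 bp from Nr2f2, 576297 bp from Arid1b and 485226 bp from Dok5, at 10.7 to 19.3% in muscle and 71.7 to 98.1% in the teratomas.

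The limits cut through a continuum. The 3 members nearest the limit in muscle were at just under 20% there, a level that 8 members reach only through the rounding of the deposited percents, and the nearest tiles outside were at 20% with 71.5 to 97.0% in the teratomas. At the other limit the nearest members had 60% in P5_LCDM_1, and the nearest tiles outside had 59.85 to 59.96% in P5_a2iL_1 or P5_LCDM_1. One tile left out for holding 4 shared cytosines was at 0% in muscle and from 66.7 to 90% in the teratomas.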

How the data were processed

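Methylation was measured in 5 libraries, 1 per group. The authors deposited, for each CpG cytosine, the percent of reads methylated, with no coverage. The tools named by the submitters' processing notes are Trim Galore 0.6.4 and Bismark, and the build is mm10. The Bismark version, coverage minimum and call settings are not stated there. Checked on promoter sequences, 100% of 297409 muscle cytosines fall on a CpG when positions count from 1, against 56.3% from 0, so positions were read from 1.

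Tile levels were unweighted means over shared cytosines. With 1 library per group and no counts, no test or depth interval was computed. Gene positions came from RefSeq, GRCm38.p6, with 20665 autosomal protein coding genes, of which 16457 had a start in the table used here. In tiles that touch several genes the longest was used for the place along it. Of 399 list genes 388 matched an autosomal gene. The members and lists were chosen with earlier results of these data known. Named tiles follow a rule: those with the largest distance and 10 or more cytosines, adjacent pairs, genes with most members, list genes, gene starts, most cytosines, farthest from a gene, and those next to a limit. Meis1 and 4932438H23Rik were named, and the windows shown were chosen, after their values were seen.

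Alternatives changed each limit, the cytosine minimum, the tile grid, the level, and the teratomas required. Unused cytosines were an added measure. In simulated chromosome 1 data with muscle at 8% and teratomas at 85% in 200 changed tiles of 9619, the code recovered 100% of them. All other tiles were given the same level in every library, without the graded levels of the real data. Values so far from the limits nearly fix this outcome, so it checks the code and not the members. Python 3.11.15, NumPy 2.4.6, pandas 2.3.3, SciPy 1.17.1 and matplotlib 3.10.9 were used.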

Additional observations from a re-analysis of the deposited data

How the results depend on the processing

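The number of members followed the limits. From 808 it went to 1255 with 3 shared cytosines and 322 with 10, to 302 with muscle under 10% and 1762 under 30%, to 1347 with teratomas at 50% or more and 424 at 70%, and to 1626 with medians over cytosines. Leaving 1 teratoma out of the rule gave from 829 to 1454, the highest without P5_LCDM_1, which moved the number by over 1.5 times. Shifting the grid by 500 bp gave 820. Using each library's own cytosines gave 721, of which 602 were members before. Of the 10 muscle list genes with a member, 5 were left with 10 shared cytosines or with muscle under 10% and 6 with teratomas at 70%, while the number was 16 with 3 shared cytosines or teratomas at 50% and 21 with muscle under 30%. The share in protein coding genes stayed from 59.6 to 63.2% except at 66.0% with teratomas at 70%. Counting all genes of the annotation it was 71.3%. The median of 8 shared cytosines went to 6, 13.5 and 9 with 3 shared cytosines, 10 shared cytosines and muscle under 30%. The muscle median beside members was 45.3% with 5 cytosines in the flank and 27.5% beside members of 20 or more, a setting chosen after seeing the data. All 58 named tiles kept muscle below every teratoma under both other levels. Those levels use or include the cytosines that chose the tiles, which nearly fixes the direction. Over every listed cytosine, the distance to the lowest teratoma changed most at 3 tiles, where it was from 20.5 to 59.8 points. With medians it changed most at 4, where it was from 83.3 to 100 points. No paired analysis was possible because each group holds 1 library. The unknown depth limits every single percent.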

Other observations

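Some members lay at starts of long noncoding RNA genes, at a share near that of all tiles. On the 18 autosomes with known starts, 12 of 781 members, or 1.54%, held a known gene start but no known protein coding one. The share was 1.32% of all tested tiles and 2.84% of the other tiles under 20% in muscle. LOC108168800 on chromosome 2 had 4 shared cytosines in the 250 bases before one of its starts, all at 0% in muscle, with means of 96.4% in P5_2iL, 97.9% in P5_2iL_F, 100% in P5_a2iL_1 and 82.6% in P5_LCDM_1. Gm38675 on chromosome 5 had 10, where muscle had a mean of 14.98%, P5_2iL 95.05%, P5_2iL_F 91.8%, P5_a2iL_1 65.9% and P5_LCDM_1 57.8%. At 4930505M18Rik on chromosome 7 muscle was higher in that window, at 34% over 5 shared cytosines, with 79.8 to 83.3% in the teratomas. These genes were chosen after their values were seen.

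Chromosomes held members in unequal shares of their tested tiles, from 0.421% on chromosome 14 (25 of 5945) to 0.794% on chromosome 15 (56 of 7057). The cause was not tested.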
